A study of Homo sapiens with 90 samples.

Results

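The NF-kB chemokine set of HepaRG cells comprises 10 genes: 9 chemokine genes, CXCL1, CXCL2, CXCL3, CXCL5, CXCL6, CXCL8, CXCL13, CCL2 and CCL20, and NFKBIA. They were taken by symbol from a table of 28307 genes, and all 10 are in it. After a filter on low counts 8 of the 10 were among the 12125 genes tested; CXCL5 and CXCL6 were not. HepaRG is a human liver line whose proliferating progenitors become hepatocyte-like and biliary-like cells in culture with dimethyl sulfoxide (DMSO). RNA was counted gene by gene by bulk sequencing of barcoded, pooled libraries (BRB-seq) in 90 libraries: 15 culture conditions, each in parental cells (labelled wt) and in cells with a stable lentiviral CYP2D6 transgene (labelled CYP2D6), with replicates a, b and c. Progenitor cells, labelled noDMSO, were taken on days 0, 2, 4, 7 and 14. Differentiated cells, labelled FreshDifferentiated or Thawed, were taken on day 30 and day 32 as noDMSO and on days 32, 37 and 44 as withDMSO. Both lines share the protocol in the labels, in which 1.7% DMSO induces differentiation, so the day 30 cells had passed through it although they are labelled noDMSO. What was done to the cells between days 30 and 32, the promoter of the transgene, and whether the transduced line is 1 clone are not given in the sources used here. The labels do not say whether replicates a, b and c came from separate cultures, so the p-values measure the spread between these libraries, which may be technical.

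NF-kB is a family of dimeric transcription factors, among them RELA, REL and NFKB1, that inhibitor proteins of the IkB family hold in the cytoplasm. Cytokines such as interleukin-1 and TNF, microbial products and cell stress activate the IKK kinases, IkB is degraded, and NF-kB enters the nucleus and switches on chemokine genes together with NFKBIA, which encodes IkB-alpha and ends the signal. In the liver, CXCL1, CXCL2, CXCL3, CXCL5, CXCL6 and CXCL8 attract neutrophils, CCL2 attracts monocytes, CCL20 attracts CCR6-bearing lymphocytes and dendritic cells, and CXCL13 attracts B cells through CXCR5.

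Of the chemokine genes 6 lie in 1 cluster on chromosome 4. In RefSeq on GRCh38.p14 they are, in order, CXCL8 (chr4:73740569-73743716), CXCL6 (chr4:73836678-73838760), CXCL1 (chr4:73869393-73871308), CXCL5 (chr4:73995642-73998677), CXCL3 (chr4:74036589-74038689) and CXCL2 (chr4:74097040-74099195). CXCL13 lies apart on the same chromosome (chr4:77511753-77611834), CCL2 on chromosome 17 (chr17:34255285-34257203), CCL20 on chromosome 2 (chr2:227813842-227817556) and NFKBIA on chromosome 14 (chr14:35401513-35404749). The promoters below are shown because 6 of these genes moved together in the results and CXCL13 often did not. Each line is the 150 bases before a RefSeq transcription start, 5′ to 3′ on the gene's strand, with matches to an NF-kB (kB) core GGNNNTTCC on either strand in capitals.

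CXCL1 (chr4:73869243-73869392, plus strand): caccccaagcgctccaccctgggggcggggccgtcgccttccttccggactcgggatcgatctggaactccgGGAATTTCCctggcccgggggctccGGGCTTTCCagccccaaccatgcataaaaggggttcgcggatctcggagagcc
CXCL2 (chr4:74099196-74099345, minus strand): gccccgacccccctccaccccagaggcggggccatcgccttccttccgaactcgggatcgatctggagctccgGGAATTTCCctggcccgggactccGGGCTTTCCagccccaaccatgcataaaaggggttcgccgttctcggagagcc
CXCL3 (chr4:74038690-74038839, minus strand): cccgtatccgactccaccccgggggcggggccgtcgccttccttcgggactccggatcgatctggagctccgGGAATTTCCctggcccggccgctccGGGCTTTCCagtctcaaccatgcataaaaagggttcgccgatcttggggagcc
CXCL8 (chr4:73740419-73740568, plus strand): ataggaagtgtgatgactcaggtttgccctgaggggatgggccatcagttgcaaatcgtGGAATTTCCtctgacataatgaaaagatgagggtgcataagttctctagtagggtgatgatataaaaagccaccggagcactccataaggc
CCL20 (chr2:227813692-227813841, plus strand): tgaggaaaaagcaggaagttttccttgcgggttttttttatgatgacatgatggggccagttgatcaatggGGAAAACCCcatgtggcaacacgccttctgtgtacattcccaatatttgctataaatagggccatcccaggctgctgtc
NFKBIA (chr14:35404750-35404899, minus strand): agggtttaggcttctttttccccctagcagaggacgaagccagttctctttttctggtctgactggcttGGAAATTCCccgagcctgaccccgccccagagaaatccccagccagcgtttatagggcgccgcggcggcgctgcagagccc
CXCL13 (chr4:77605670-77605819, plus strand): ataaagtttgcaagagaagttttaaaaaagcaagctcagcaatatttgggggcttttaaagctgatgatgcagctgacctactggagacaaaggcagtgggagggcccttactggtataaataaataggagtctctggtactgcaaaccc

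The kB core was present in the promoter windows of 8 of the 9 members matched in the RefSeq table, and in 20.1% of all 35116 promoters (windows from 250 bases before to 50 after the start, both strands searched). CXCL1, CXCL2 and CXCL3 carried the same pair of matches, GGAATTTCC and GGGCTTTCC, with the second at positions -53 to -45 from the start in each of the 3. CXCL8 had 1 kB core, the same GGAATTTCC, at -91 to -83, and was the only matched member with the AP-1 motif TGANTCA, at -137 to -131; 7.71% of all promoters held that motif. CCL20 had 1 match, on the reverse strand at -79 to -71. NFKBIA had 2, one of which, at -242 to -234, lies outside the printed stretch. Neither of the 2 RefSeq starts of CXCL13 had a kB core match; the start printed is the downstream one. A longer form, the core with 1 more G in front, overlaps it and was in 7 of the 9 and in 6.52% of all promoters. A match describes letters only and is no evidence of binding.

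Total counts per library ranged from 723391 to 3882866 in 87 libraries. The other 3, all parental (progenitor day 2 c, progenitor day 14 c and fresh day 30 c), were nearly empty, with 212, 10137 and 505 counts. They stayed in the fit, so log2 changes, SEs, intervals, p-values and shares of genes called include them, except in alternatives that leave them out. The expression levels and gene counts given here leave them out. CYP2D6 itself was at 2.35 to 28.3 CPM (counts scaled to the size of the library) in the 45 transduced libraries and at 0 to 4 CPM in the 42 parental ones. The hepatocyte marker ALB, the gene of albumin, averaged 10550 CPM. Of 15 macrophage and leukocyte markers 2 were tested, CD68 and CD14, while the defining markers PTPRC, CD3E and MARCO had 27, 3 and 4 counts over the 87 libraries. Of 15 stellate, fibroblast and endothelial markers 7 were tested, among them ACTA2, DCN, LUM and KDR at means of 48.9, 49.2, 34.4 and 15.4 CPM, while the endothelial markers VWF and CDH5 had 18 and 11 counts. Of 10 biliary and progenitor markers 6 were tested, among them KRT19, SOX4, CD24 and SPP1 at means of 249.6, 194.4, 149.6 and 45.2 CPM, while EPCAM had 0 counts. In 3 libraries the members stood apart from the other replicates: parental progenitor day 14 a was high, and replicate c of thawed day 30 was low in both lines.

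**Figure D1:**
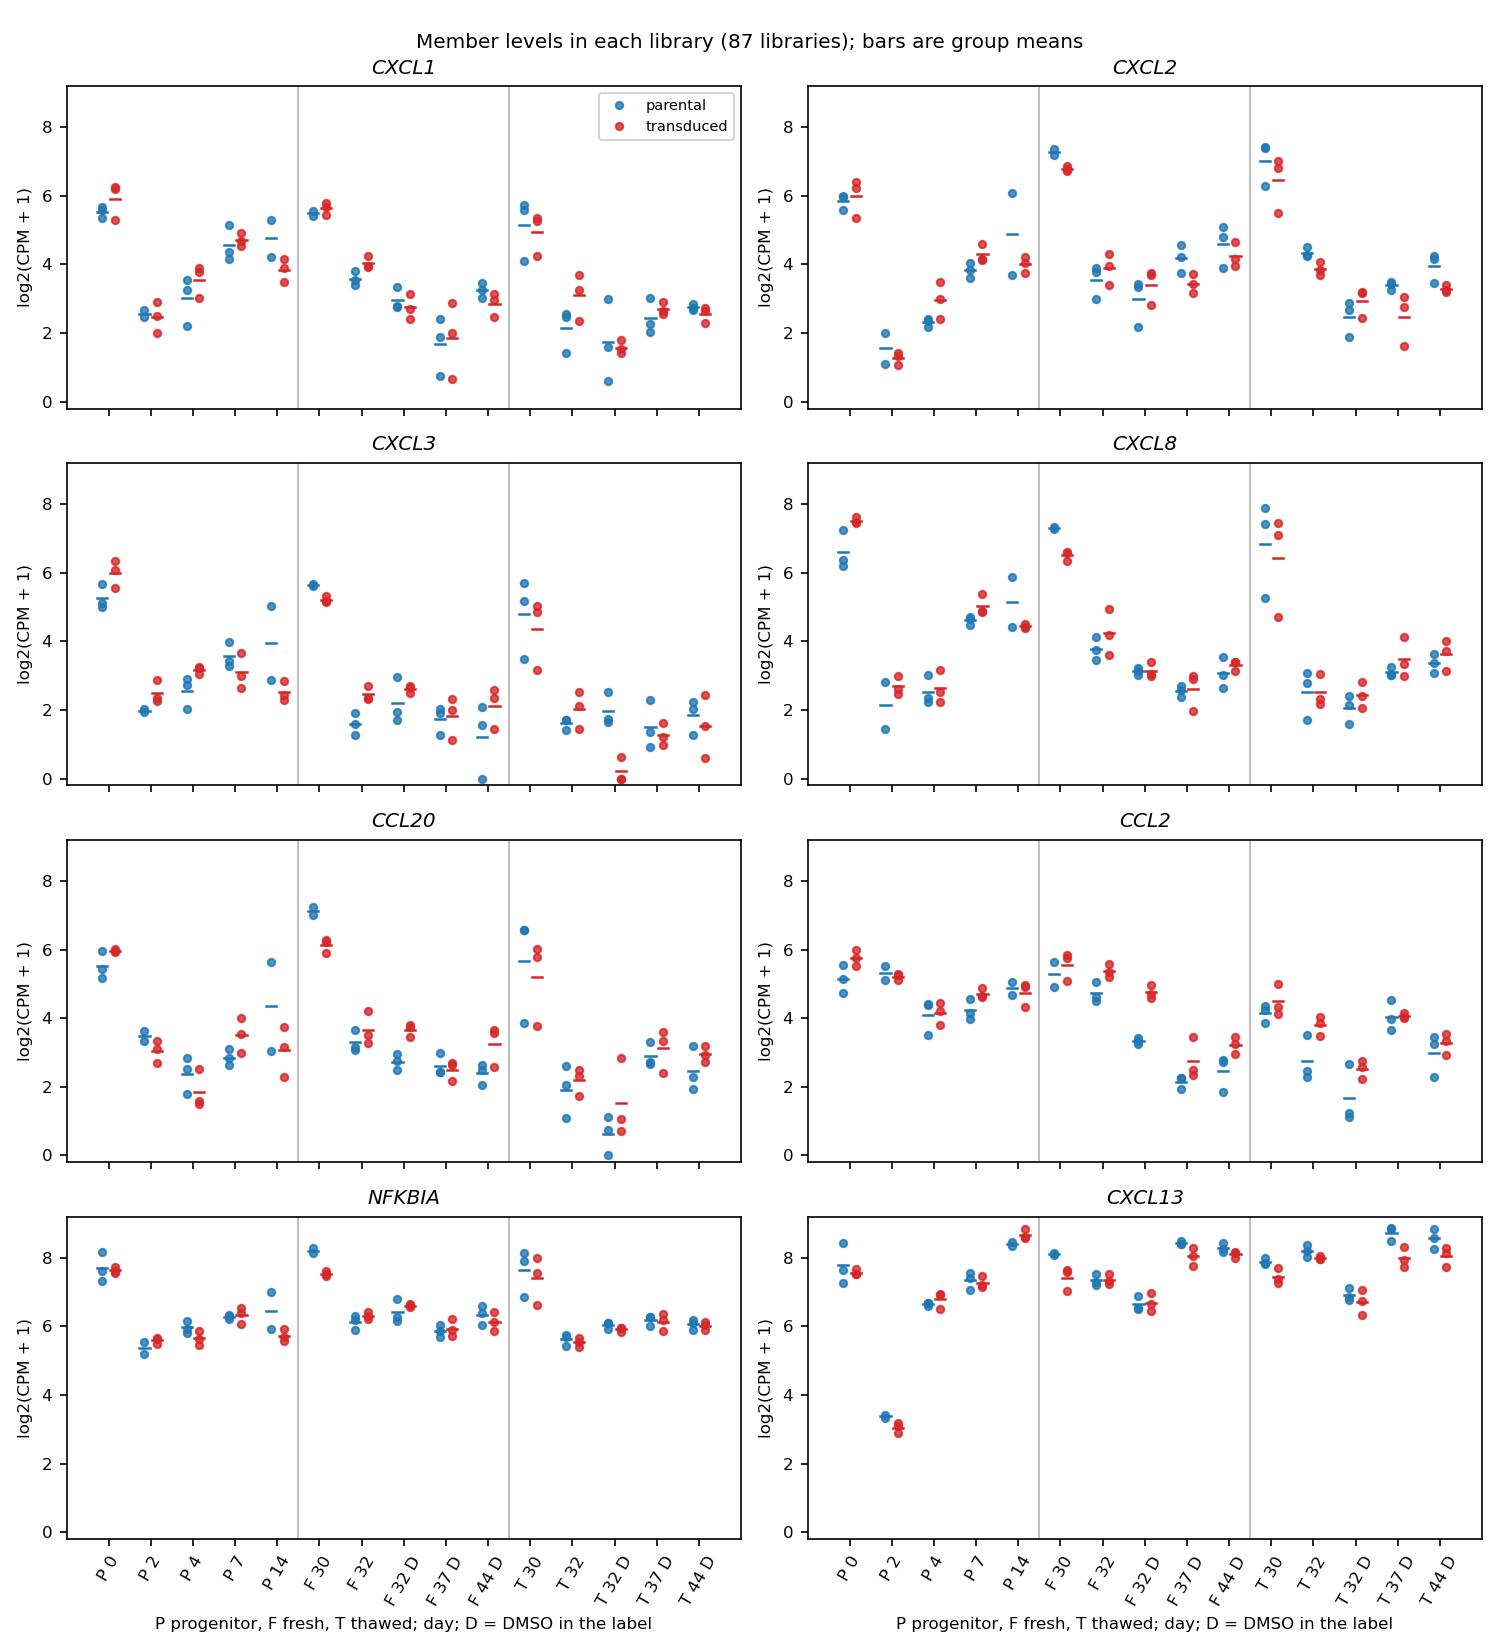
Level of each tested member in each of the 87 usable libraries, as log2(CPM + 1) against condition (P progenitor, F fresh, T thawed, then the day, and D for a withDMSO label); dots are libraries, bars are group means, parental in blue and transduced in red. CXCL1, CXCL2, CXCL3, CXCL8, CCL20 and NFKBIA stand highest at progenitor day 0 and at both day 30 conditions, while CXCL13 is lowest at progenitor day 2.

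In progenitors the members were far lower on day 2 than on day 0. By edgeR's quasi-likelihood test with Benjamini-Hochberg adjustment over the 12125 genes, 7 of the 8 tested members fell and 1, CCL2, did not pass; 31.1% (14.1% higher, 16.9% lower) of all genes tested were called in this comparison. The neutrophil chemokine gene CXCL2 was at 39.8 CPM (lowest), 62.6 CPM (median) and 83.7 CPM (highest) in the 6 libraries of day 0. On day 2 it was at 1.52, 1.70 and 1.08 CPM in transduced and at 3.04 and 1.15 CPM in parental cells, so no library of day 2 came near those of day 0. CXCL2 fell 35.3-fold (log2 change -5.14 ± 0.39 SE, adjusted p = 2.49e-18). CXCL8, the gene of interleukin-8, went from 72.7 CPM (lowest), 162 CPM (median) and 195 CPM (highest) to 4.56, 5.09 and 7.01 CPM in transduced and 6.08 and 1.72 CPM in parental cells. The groups again did not overlap, and CXCL8 fell 29.9-fold (log2 -4.90 ± 0.40 SE, adjusted p = 2e-16).

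The other neutrophil chemokine genes fell less. CXCL3 fell 13.0-fold (log2 -3.70 ± 0.35 SE, adjusted p = 1.87e-16), from 31.3 to 80.8 CPM on day 0 to 2.86 to 6.36 CPM on day 2. CXCL1 fell too (log2 -3.46 ± 0.31 SE, adjusted p = 4.21e-18), from 37.9 to 75.1 CPM to 3.04 to 6.47 CPM. CCL20 fell 6.13-fold (log2 -2.62 ± 0.38 SE, adjusted p = 5.43e-08), and NFKBIA 4.64-fold (log2 -2.22 ± 0.18 SE, adjusted p = 3.06e-19). Neither gene's day 2 libraries, at 5.51 to 11.4 CPM for CCL20 and 35.7 to 49.6 CPM for NFKBIA, overlapped those of day 0.

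The B cell chemokine gene CXCL13 fell with them here. It was at 183, 183 and 202 CPM in transduced and 199, 154 and 346 CPM in parental cells on day 0. On day 2 it was at 8.10, 6.36 and 7.55 CPM in transduced and 9.12 and 9.73 CPM in parental cells, a fall of 25.1-fold (log2 -4.65 ± 0.19 SE, adjusted p = 2.97e-43). The monocyte chemokine gene CCL2 was at 25.8 to 62.1 CPM on day 0 and 33.4 to 44.6 CPM on day 2, ranges that overlap, with a log2 change of -0.21 (95% interval -0.61 to 0.18, adjusted p = 0.461). Each line alone gave 7 members lower of 8, against 21.6% of all genes called in parental and 21.5% in transduced cells. In these bulk libraries fewer expressing cells and less RNA per cell cannot be told apart. Beside these falls, 12 of 15 hepatocyte markers were lower too, with a median log2 change of -2.05, and their summed level went from 16940 to 39860 CPM on day 0 to 3955 to 4633 CPM on day 2; their part in the result was not tested.

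**Figure D2:**
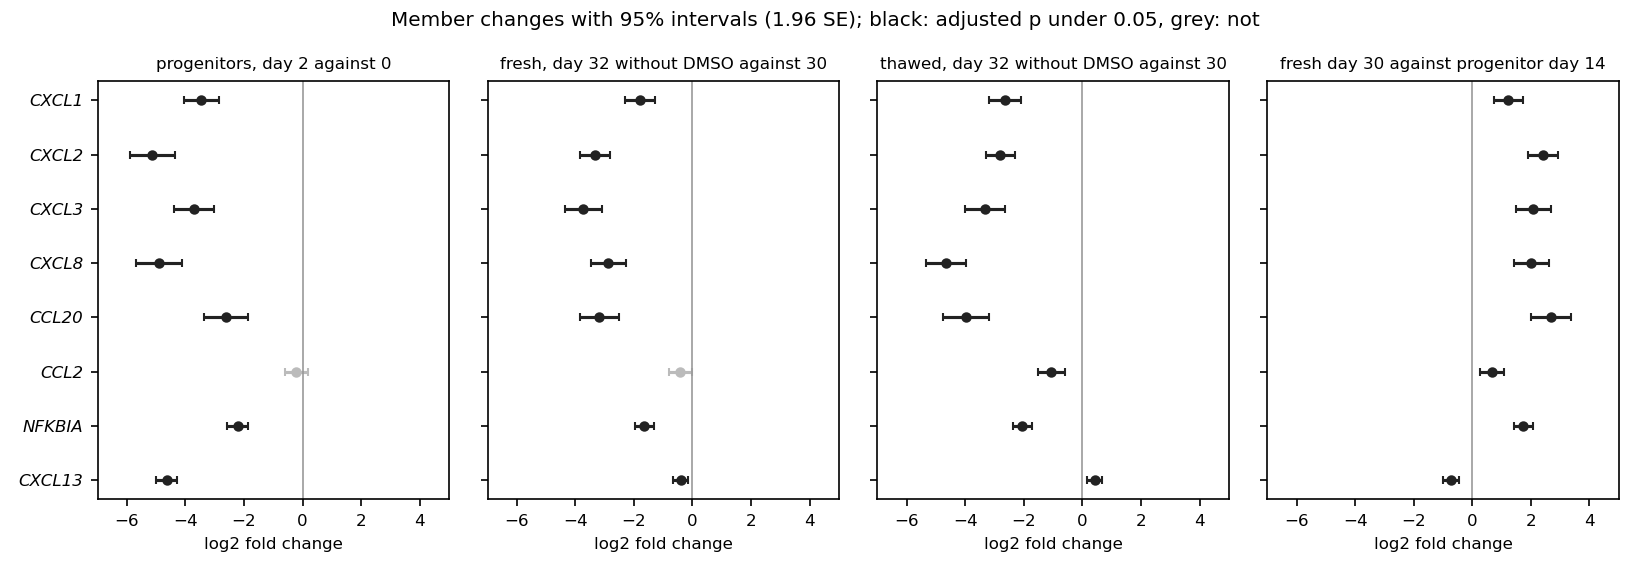
Log2 fold change of each tested member (x axis) with its 95% interval in 4 comparisons; black passed the adjusted p threshold of 0.05 and grey did not. The same 6 members (all but CCL2 and CXCL13) fell in each of the 3 comparisons over the first 2 days and rose from progenitor day 14 to fresh day 30, whereas CXCL13 was higher on day 32 than on day 30 in thawed cells.

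From day 2 to day 7 the progenitors regained part of the signal: 6 of 8 members rose and 1 fell, where 34.3% (18.1% higher, 16.3% lower) of all genes were called. CXCL13 rose most, 19.0-fold (log2 4.24 ± 0.19 SE, adjusted p = 3.54e-40), and had already reached 89.5 to 121 CPM on day 4. CXCL2 rose 8.98-fold (log2 3.17 ± 0.43 SE, adjusted p = 7.21e-09), to 11.1 CPM (lowest), 16.0 CPM (median) and 23.4 CPM (highest), still below its day 0 range. CXCL8, CXCL1, CXCL3 and NFKBIA rose 6.04-fold, 5.08-fold, 2.47-fold and 1.78-fold (adjusted p = 5.22e-07, 4.23e-10, 0.00503 and 6.07e-05), and the call of CXCL3 was lost without replicate b (adjusted p = 0.103) and by DESeq2 (adjusted p = 0.224). CCL2 fell 1.75-fold (log2 -0.81 ± 0.21 SE, adjusted p = 0.000798) and CCL20 had a log2 change of -0.05 (95% interval -0.88 to 0.77). Day 4 lay between for CXCL2, at 3.56 to 10.3 CPM, but CXCL8 was still at 3.65 to 7.98 CPM, overlapping its day 2 values.

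Between day 7 and day 14 only CXCL13 passed, where 7.62% (4.71% higher, 2.91% lower) of all genes did. It rose 2.28-fold (log2 1.19 ± 0.13 SE, adjusted p = 1.31e-12), from 132 to 186 CPM to 326 to 455 CPM, with no overlap between the days. The other members on day 14 depended on parental library a. There CXCL2 was at 66.3 CPM, against 11.8 CPM in parental b and 12.5, 15.5 and 17.6 CPM in the transduced libraries. CCL20 showed the same split, at 49.1 CPM against 7.19 CPM in parental b and 8.01, 3.87 and 12.4 CPM in the transduced libraries. CXCL3, at 31.3 CPM, CXCL8, at 58.0 CPM, and NFKBIA, at 126 CPM, were above the other 4 libraries as well, whose highest values were 6.34, 21.8 and 59.8 CPM. CCL2 and CXCL13 in that library, at 24.8 and 326 CPM, were not. CYP3A4, a liver drug-metabolizing enzyme gene, was at 833 CPM in it, against 90.9 CPM in parental b and 113 to 130 CPM in the transduced libraries, and the immediate-early gene FOS was at 48.8 CPM against 2.54 CPM; whether the library matches its label was not tested.

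Differentiated cells on day 30 had more of these transcripts than progenitors on day 14. Of the 8 members 7 rose and 1, CXCL13, fell, where 23.3% (11.8% higher, 11.5% lower) of all genes were called. CCL20 rose 6.45-fold (log2 2.69 ± 0.35 SE, adjusted p = 1.35e-08), reaching 72.9, 76.2 and 58.6 CPM in transduced and 127 and 150 CPM in parental cells. Parental progenitor library a, at 49.1 CPM, was the nearest to that range, and without it the log2 change was 3.63 (adjusted p = 3.5e-10). CXCL2 rose 5.33-fold (log2 2.41 ± 0.26 SE, adjusted p = 3.84e-11), to 110, 104 and 116 CPM in transduced and 146 and 164 CPM in parental cells, which lie above every progenitor library of day 14. Without library a its log2 change was 3.29. CXCL3 and CXCL8 rose 4.22-fold and 4.04-fold (adjusted p = 4.02e-08 and 6.28e-07), NFKBIA 3.36-fold (adjusted p = 6.76e-14) and CXCL1 2.35-fold (adjusted p = 9.1e-05). Without library a the log2 changes of CXCL3, CXCL8, NFKBIA and CXCL1 were 2.82, 2.45, 2.08 and 1.58. CCL2 rose 1.60-fold (log2 0.68 ± 0.21 SE, adjusted p = 0.0114), a call that was lost without library a (log2 0.60, adjusted p = 0.0626). The CCL2 call was also lost without replicate a or replicate b of every group (adjusted p = 0.207 and 0.102). CXCL13 fell 1.67-fold (log2 -0.74 ± 0.14 SE, adjusted p = 1.81e-05; -0.73 without library a), from 326 to 455 CPM to 129 to 283 CPM; this call was lost without replicate b (adjusted p = 0.0844) and by DESeq2 (adjusted p = 0.104). CXCL1 also lost its call without replicate b (adjusted p = 0.0616). By line, parental cells alone gave 5 members higher and 0 lower, and transduced cells 7 higher and 1 lower. Of all genes 8.02% and 19.9% were called, and the fall of CXCL13 was not called in parental cells alone. In the same comparison 9 of 15 hepatocyte markers were higher and none lower; their part in the result was not tested.

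In fresh cells the members were lower again by day 32 without DMSO. By edgeR's test 7 of 8 members fell and CCL2 did not pass, against 17.3% (9.11% higher, 8.19% lower) of all genes called. CXCL3 fell 13.2-fold (log2 -3.72 ± 0.33 SE, adjusted p = 1.45e-16), from 38.8, 34.3 and 34.9 CPM in transduced and 48.3 and 49.8 CPM in parental cells on day 30. On day 32 it was at 1.39 CPM (lowest), 3.37 CPM (median) and 5.55 CPM (highest), well clear of day 30. CXCL2 fell 10.1-fold (log2 -3.33 ± 0.26 SE, adjusted p = 3.13e-16), to 6.95 CPM (lowest), 13.3 CPM (median) and 18.6 CPM (highest). CCL20 fell 9.11-fold (log2 -3.19 ± 0.34 SE, adjusted p = 4.35e-11), to 7.41 CPM (lowest), 9.52 CPM (median) and 17.7 CPM (highest), again without overlap. CXCL8, CXCL1 and NFKBIA fell 7.32-fold, 3.47-fold and 3.12-fold (adjusted p = 4.75e-11, 2.14e-08 and 9.63e-14).

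The other 2, CXCL13 and CCL2, had smaller log2 changes in fresh cells. CXCL13 fell 1.33-fold (log2 -0.41 ± 0.14 SE, adjusted p = 0.0246) with overlapping groups, 129 to 283 CPM on day 30 and 147 to 185 CPM on day 32, and the call was lost without replicate a (adjusted p = 0.544), without replicate b (adjusted p = 0.081) and with no low-count filter (adjusted p = 0.144). CCL2 was at 29.2 to 56.3 CPM and then at 21.8 to 46.8 CPM, with a log2 change of -0.41 (95% interval -0.81 to -0.02, adjusted p = 0.154). CCL2 was called lower with RLE scaling (log2 -0.73, adjusted p = 0.00411) and by DESeq2 (log2 -0.76, adjusted p = 0.0429). Parental cells alone gave 7 members lower and transduced cells alone 6, where 9.62% and 5.19% of all genes were called.

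In thawed cells 7 of 8 members were lower on day 32 without DMSO than on day 30 and CXCL13 was higher, against 11.4% (5.5% higher, 5.91% lower) of all genes called. CXCL8 was at 174, 137 and 25.4 CPM in transduced and 234, 170 and 37.2 CPM in parental cells on day 30. Replicate c was the low one in each line, yet on day 32 all 6 libraries, at 2.24 CPM (lowest), 4.90 CPM (median) and 7.37 CPM (highest), lay below it. CXCL8 fell 25.1-fold (log2 -4.65 ± 0.35 SE, adjusted p = 8.17e-17), and without the replicates c of day 30 the log2 change was -5.13. CCL20 fell 15.7-fold (log2 -3.97 ± 0.40 SE, adjusted p = 3.56e-12), from 63.5, 54.0 and 12.7 CPM in transduced and 94.9, 94.5 and 13.5 CPM in parental cells to 1.12 to 5.10 CPM. The day 30 replicates c of CCL20 were also the nearest to day 32. CXCL3, CXCL2, CXCL1, NFKBIA and CCL2 fell 10.0-fold, 7.01-fold, 6.22-fold, 4.14-fold and 2.09-fold (adjusted p = 1.16e-13, 3.07e-14, 2.64e-13, 1.39e-18 and 0.000374). Without the replicates c the log2 changes were -4.45 for CCL20, -3.75 for CXCL3, -3.13 for CXCL2, -2.97 for CXCL1, -2.35 for NFKBIA and -1.10 for CCL2. By line, parental cells alone gave 7 members lower and transduced cells 6, with 0 higher in each. Of all genes 5.06% and 5.81% were called.

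CXCL13 went the other way in thawed cells. It was at 153, 206 and 167 CPM in transduced and 226, 253 and 229 CPM in parental cells on day 30, and at 247, 262 and 246 CPM and 261, 291 and 332 CPM on day 32. Within each line every day 32 library was above every day 30 library, and CXCL13 rose 1.34-fold (log2 0.42 ± 0.13 SE, adjusted p = 0.0176). That call was lost without the day 30 replicates c (log2 0.39, adjusted p = 0.0867) and when any 1 replicate letter was dropped (adjusted p = 0.183, 0.0801 and 0.0705), by DESeq2 (adjusted p = 0.286) and under 2 other settings. The difference between the thawed and the fresh change was itself tested, and 2 of 8 members passed where 0.965% (0.421% higher, 0.544% lower) of all genes did. For CXCL13 the thawed change exceeded the fresh one by 0.83 on the log2 scale (± 0.19 SE, adjusted p = 0.00949), and for CXCL8 the difference was -1.78 (± 0.48 SE, adjusted p = 0.0472), a larger fall in thawed cells. Without the day 30 replicates c these were 0.80 and -2.25, and leaving out replicate a or replicate b of every group ended both calls (adjusted p = 0.405 and 0.075 for CXCL13, 0.515 and 0.555 for CXCL8). DESeq2 did not call CXCL8 either (adjusted p = 0.154).

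**Figure D3:**
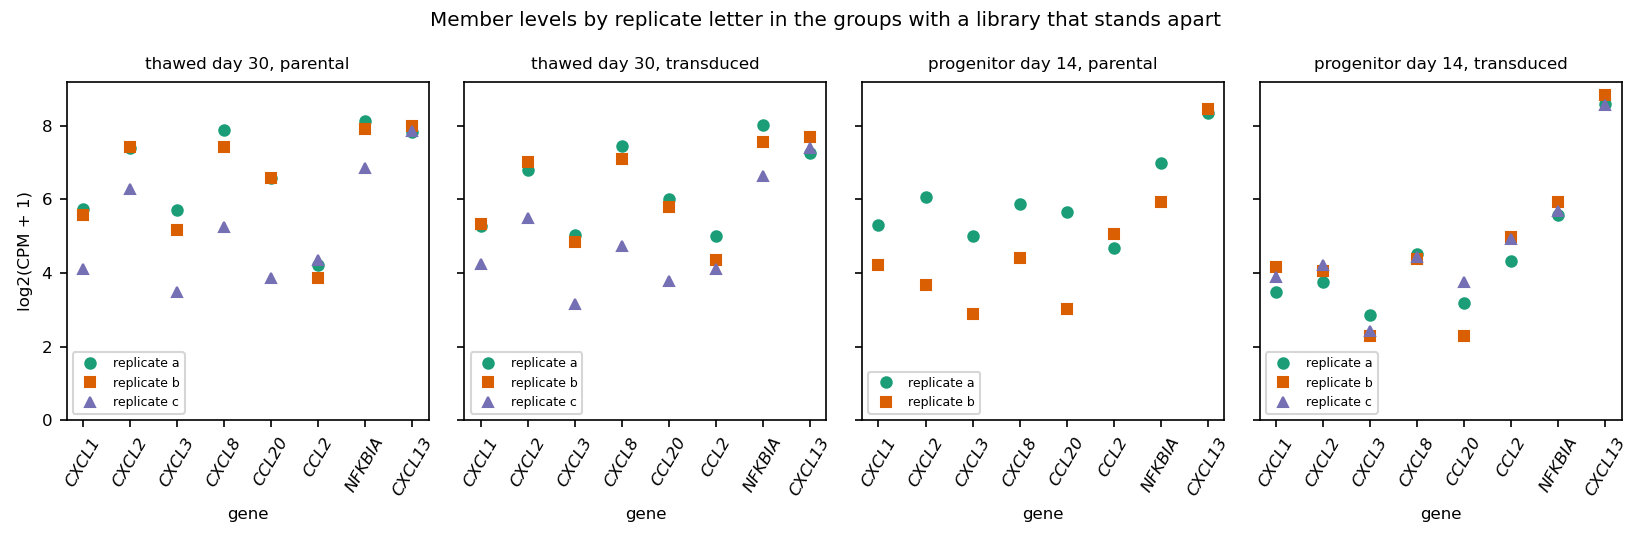
Level of each tested member as log2(CPM + 1) in the libraries of thawed day 30 and progenitor day 14, by line and replicate letter. Replicate c of thawed day 30 is low in both lines for 6 members but not for CCL2 and CXCL13, and replicate a of parental progenitor day 14 is high for the same 6; its replicate c was nearly empty and is not drawn.

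The low replicates c of thawed day 30 were alike in the 2 lines. Averaged over the 8 members, they lay 0.89 log2 units below their group means in each line, and replicates a and b lay 0.35 to 0.54 above. NFKBIA was at 97.8 CPM in transduced c against 256 and 188 CPM, and at 115 CPM in parental c against 281 and 240 CPM. The immediate-early gene FOS was lower in c as well, at 63.4 CPM against 171 and 207 CPM in transduced and 103 CPM against 194 and 182 CPM in parental cells. ALB, at 9183 to 13240 CPM over the 6 libraries, and CYP3A4, at 1128 CPM in transduced c against 1164 and 879 CPM, did not follow the letter.

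DMSO on day 32 lowered 2 members in fresh cells, where 2.15% (0.478% higher, 1.67% lower) of all genes were called. CCL2 fell 2.12-fold (log2 -1.08 ± 0.22 SE, adjusted p = 0.000489). Its fresh libraries without DMSO were at 39.7, 35.8 and 46.8 CPM in transduced and 21.8, 23.6 and 32.5 CPM in parental cells, and with DMSO at 23.0, 25.1 and 30.2 CPM and at 9.74, 8.56 and 9.17 CPM. Within each line the groups did not overlap. CXCL13 fell 1.61-fold (log2 -0.69 ± 0.14 SE, adjusted p = 0.00026), from 147 to 185 CPM to 86.7 to 124 CPM. CXCL1 (9.61 to 18.1 CPM without, 4.33 to 9.17 CPM with DMSO) and CXCL8 (9.91 to 29.8 and 6.87 to 9.52 CPM) did not overlap but missed the threshold. EdgeR called both lower with no low-count filter (adjusted p = 0.0246 and 0.0046) and with only the compared libraries (adjusted p = 0.0352 and 0.0316), among other settings. Parental cells alone gave 2 members lower and transduced cells 0, where 0.808% and 0.635% of all genes were called. In thawed cells 3 members fell, against 7.04% (2.28% higher, 4.77% lower) of all genes. CCL2 fell 2.50-fold (log2 -1.32 ± 0.30 SE, adjusted p = 0.00107), CXCL2 2.84-fold (log2 -1.50 ± 0.33 SE, adjusted p = 0.00112) and CXCL13 2.41-fold (log2 -1.27 ± 0.13 SE, adjusted p = 1.63e-13). Thawed CXCL13 was at 246 to 332 CPM without and 80.3 to 138 CPM with DMSO. NFKBIA in thawed cells was at 41.2 to 53.3 CPM without and 56.6 to 67.8 CPM with DMSO, ranges that do not overlap. Its log2 change of 0.40 did not pass by edgeR (95% interval 0.08 to 0.73, adjusted p = 0.134). It was called higher with RLE scaling (adjusted p = 0.00792), with only the compared libraries (adjusted p = 0.0118) and by DESeq2 (adjusted p = 0.0495). Leaving out replicate a of every group ended the calls of fresh CXCL13 (adjusted p = 0.0755) and thawed CCL2 (adjusted p = 0.275). The difference of the DMSO effects between thawed and fresh cells gave 0 members by edgeR, with 2 at an unadjusted p under 0.05 and 0 by DESeq2, against 0.0165% (0% higher, 0.0165% lower) of all genes; the nearest was CXCL13, at -0.58 (95% interval -0.95 to -0.21, adjusted p = 0.7).

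With DMSO kept on to day 44, CXCL13 rose in both statuses. In fresh cells it rose 2.89-fold from day 32 (log2 1.53 ± 0.14 SE, adjusted p = 1.14e-17), to 256, 282 and 285 CPM in transduced and 304, 344 and 289 CPM in parental cells. In thawed cells it rose 2.82-fold (log2 1.49 ± 0.13 SE, adjusted p = 8.53e-18), to 211, 279 and 309 CPM and 306, 382 and 460 CPM. No day 44 library overlapped day 32 in either status. The summed level of the 15 hepatocyte markers was higher on day 44 without overlap too, going from 56060 to 74580 CPM to 110400 to 172700 CPM in fresh and from 43490 to 55170 CPM to 89790 to 165000 CPM in thawed cells; its part in the result was not tested. CCL2 went in opposite directions: it fell 2.40-fold in fresh cells (log2 -1.26 ± 0.27 SE, adjusted p = 0.000214) and rose 2.23-fold in thawed cells (log2 1.16 ± 0.30 SE, adjusted p = 0.00424), a difference between statuses that was not tested. Thawed day 32 with DMSO had the lowest mean of any condition for CCL2, 3.70 CPM from 38 counts in all. Its libraries were at 4.95, 3.69 and 5.69 CPM in transduced and 1.15, 1.35 and 5.34 CPM in parental cells. They overlap those of fresh day 37 with DMSO, at 2.79 to 10.0 CPM. CXCL2 also rose in fresh cells, 2.50-fold (adjusted p = 0.00202), and CCL20 and CXCL8 in thawed cells, 4.47-fold and 2.67-fold (adjusted p = 0.0179 and 0.0272). CXCL2 in thawed cells had a log2 change of 0.99 that missed the threshold (95% interval 0.32 to 1.67, adjusted p = 0.0539). It was called higher with RLE scaling (adjusted p = 0.031), with no low-count filter (adjusted p = 0.00669), with the replicate block (adjusted p = 0.0445) and with only the compared libraries (adjusted p = 0.0168), among other settings. In all, 3 members were called in fresh and 4 in thawed cells, where 11.9% (6.63% higher, 5.26% lower) and 9.73% (5.72% higher, 4.01% lower) of all genes were; CCL20 in thawed cells rests on 0 to 16 counts a library. Its call was lost without replicate a or c (adjusted p = 0.131 and 0.196), those of CXCL8 without a or b (adjusted p = 0.218 and 0.34), that of thawed CCL2 without a (adjusted p = 0.0926) and that of fresh CXCL2 without b (adjusted p = 0.0549).

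Thawed and fresh cells were compared on the same day at 4 points, which share libraries with the comparisons above. On day 30 CCL2 was 2.25-fold lower in thawed cells (log2 -1.17 ± 0.21 SE, adjusted p = 4.97e-05), at 31.0, 19.2 and 16.4 CPM in transduced and 17.7, 13.5 and 19.6 CPM in parental cells, against 29.2 to 56.3 CPM in fresh cells. CCL20 was 1.81-fold lower (adjusted p = 0.0416), but not without the thawed replicates c (log2 -0.41, adjusted p = 0.313). The CCL20 call was also lost when any 1 replicate letter was dropped (adjusted p = 0.115, 0.121 and 0.276). It was lost as well with only the compared libraries (adjusted p = 0.248) and by DESeq2 without the nearly empty libraries (adjusted p = 0.0862). CCL2 and CCL20 were the 2 members called in the main fit, among 16.1% (9.73% higher, 6.36% lower) of all genes. The other 6 had log2 differences between -0.65 and 0.12, and CXCL8 was called higher in thawed cells once the replicates c were left out (log2 0.56, adjusted p = 0.0464). On day 32 without DMSO, 4 members were lower in thawed cells and 1 higher, against 0.907% (0.404% higher, 0.503% lower) of all genes. CCL2 was 3.53-fold lower (log2 -1.82 ± 0.22 SE, adjusted p = 2.83e-09), at 13.5, 10.2 and 15.3 CPM in transduced and 10.3, 3.92 and 4.54 CPM in parental cells, below every fresh library. CCL20 was at 1.12 to 5.10 CPM in thawed and 7.41 to 17.7 CPM in fresh cells, without overlap, but its log2 difference of -1.64 missed the threshold (95% interval -2.52 to -0.76, adjusted p = 0.0551). CCL20 was called lower in thawed cells with RLE scaling (adjusted p = 0.0118), with no low-count filter (adjusted p = 2.88e-06), without the nearly empty libraries (adjusted p = 0.0399), with only the compared libraries (adjusted p = 0.00123) and by DESeq2 (adjusted p = 0.0169), among other settings.

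CXCL8, CXCL1 and NFKBIA were also lower in thawed than in fresh cells on day 32 without DMSO, 3.17-fold, 2.37-fold and 1.57-fold (adjusted p = 0.0175, 0.0175 and 0.026), and CXCL13 was 1.67-fold higher (log2 0.74 ± 0.13 SE, adjusted p = 0.000186). NFKBIA separated cleanly, with thawed libraries at 41.2 to 53.3 CPM and fresh ones at 58.3 to 85.2 CPM. CXCL8 did as well, at 2.24 to 7.37 CPM against 9.91 to 29.8 CPM. The calls of CXCL1 and NFKBIA were nevertheless lost without any 1 replicate letter (adjusted p = 0.0796 to 0.294 and 0.0512 to 0.413), that of CXCL8 without replicate a or b (adjusted p = 0.114 and 0.606) and that of CXCL13 without replicate b (adjusted p = 0.0521). With DMSO on day 32, CCL2, CCL20 and CXCL3 were lower in thawed cells, 4.18-fold, 6.13-fold and 4.88-fold (adjusted p = 4.7e-07, 0.0177 and 0.0357), among 1.36% (0.338% higher, 1.02% lower) of all genes. CXCL3 and CCL20 had 0 to 10 counts in each thawed library there. The call of CXCL3 was lost without any 1 replicate letter (adjusted p = 0.106 to 0.243) and that of CCL20 without replicate a or b (adjusted p = 0.217 and 0.104). On day 44 edgeR called 0 members, with 1 at an unadjusted p under 0.05 (CXCL2) and 0 by DESeq2, which gave 6 members no adjusted p; 0.107% (0.0495% higher, 0.0577% lower) of all genes were called. CCL2 was then at 3.87 to 10.6 CPM in thawed and 2.63 to 10.0 CPM in fresh cells, with a log2 difference of 0.36 (95% interval -0.19 to 0.90).

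The CYP2D6 transgene was accompanied by few differences in these genes. Over the 5 progenitor conditions edgeR called 0 members, with 0 at an unadjusted p under 0.05 and 0 by DESeq2, which gave 1 no adjusted p, against 1.41% (1.09% higher, 0.322% lower) of all genes. Over the 5 fresh conditions 1 member, CCL2, was 1.76-fold higher in transduced cells (log2 0.81 ± 0.16 SE, adjusted p = 0.000446), where 3.25% (1.51% higher, 1.74% lower) of all genes were called. By condition, the log2 difference of CCL2 was 0.25 on day 30, 0.64 and 1.49 on day 32 without and with DMSO, 0.85 on day 37 and 0.83 on day 44. Only day 32 with DMSO passed on its own (± 0.35 SE, adjusted p = 0.045, where 0.132% of all genes did), and leaving out any 1 replicate letter ended that call (adjusted p = 0.0909 to 0.344). The fresh difference of CCL2 exceeded that in progenitors by a log2 value that did not pass the adjusted threshold in the test of the difference (0.64, 95% interval 0.23 to 1.04, adjusted p = 0.126); edgeR called 0 members in that test, 1 passed an unadjusted p under 0.05, DESeq2 called 0 but gave 4 no adjusted p, and 1.36% (0.14% higher, 1.22% lower) of all genes passed.

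Over the 5 thawed conditions CXCL13 was 1.34-fold lower in transduced cells (log2 -0.42 ± 0.08 SE, adjusted p = 0.000321), the 1 member called among 2.14% (0.792% higher, 1.34% lower) of all genes. The call was lost without replicate b of every group (adjusted p = 0.0571). Over the fresh conditions CXCL13 missed the threshold in the main fit. It was called lower in transduced fresh cells with RLE scaling (log2 -0.33, adjusted p = 0.00272) and by DESeq2 (log2 -0.33, adjusted p = 0.0336). Whether this line difference differs between thawed and fresh cells was not tested. In thawed cells it was seen by day as follows. The parental libraries of day 37 were at 357, 464 and 459 CPM and the transduced ones at 211, 241 and 317 CPM, without overlap. Day 44 gave 306, 382 and 460 CPM against 211, 279 and 309 CPM, which overlap. In progenitors on day 14 CXCL3 was called lower in transduced cells (log2 -2.02, where 0.47% of all genes were called), but without parental library a the log2 difference was -0.55 (adjusted p = 0.859).

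The conditions of highest mean level were shared by 6 members. CXCL1, CXCL2, CXCL3, CXCL8, CCL20 and NFKBIA each had progenitor day 0, fresh day 30 and thawed day 30 as their 3 highest conditions. Their lower ranks differed: of the 15 conditions progenitor day 2 ranked 15 for CXCL2 and NFKBIA but 8 for CXCL3 and CCL20. For CXCL8 and NFKBIA 15 of the 17 libraries of those 3 conditions were above all 70 libraries of the other 12 conditions, for CXCL1, CXCL3 and CCL20 it was 13, and for CXCL2 it was 12. Those 3 conditions are the ones that ranked first in the same values, so these numbers are a description and not a test. How many of all genes share this order was not counted. The span from the highest to the lowest condition mean was 75.5-fold for CXCL2, from 128 ± 26.0 CPM (SD, n = 5) in fresh day 30 to 1.70 ± 0.79 CPM (SD, n = 5) in progenitor day 2. It was 59.9-fold for CCL20 and 5.12-fold for NFKBIA, whose lowest mean, also on progenitor day 2, was still 44.7 ± 5.47 CPM (SD, n = 5). Most steps in these orders are within the spread: of the 14 neighbouring pairs of conditions, the libraries were fully separate in 1 pair for CXCL2, CXCL8 and CXCL13 and in 0 for the other 5. For CXCL8 that step lies between fresh day 30, with 80.2 CPM as its lowest library, and progenitor day 14, with 58.0 CPM as its highest.

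CXCL13 and CCL2 were ordered otherwise. CXCL13 was highest in progenitor day 14, at 380 ± 48.2 CPM (SD, n = 5), followed by thawed day 37 at 341 ± 106 CPM (SD, n = 6) and thawed day 44 at 324 ± 86.2 CPM (SD, n = 6), which overlap. Its lowest level, 8.17 ± 1.32 CPM (SD, n = 5) on progenitor day 2, was separate from the next, 101 ± 15.7 CPM (SD, n = 6) in fresh day 32 with DMSO. CCL2 was highest in progenitor day 0, at 44.3 ± 13.0 CPM (SD, n = 6), and fresh day 30, at 43.9 ± 12.1 CPM (SD, n = 5), and lowest in thawed day 32 with DMSO, at 3.70 ± 2.01 CPM (SD, n = 6), with every neighbouring pair overlapping.

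The non-member genes whose group means were most like each member's were found by Pearson's r over the 30 groups, on log2(CPM + 1) and among 9158 genes of at least 5 CPM. For CXCL8 they were TCIM (r = 0.969), KLF6 (r = 0.933) and DUSP6 (r = 0.929), for NFKBIA ZFP36 (r = 0.94), DUSP1 (r = 0.933) and TRIB1 (r = 0.927), and for CCL20 HES1 (r = 0.925), KLF10 (r = 0.91) and FOSB (r = 0.899). CXCL2 came closest to PNRC1 (r = 0.905), CXCL3 to ADM (r = 0.915) and CXCL1 to SGK1 (r = 0.897). CXCL13 had other neighbours, AKR7A3 (r = 0.953), C1R (r = 0.939) and AKR7L (r = 0.934), and CCL2 had no close one, with NEDD9 first (r = 0.749). These are descriptions over groups that share the same conditions and libraries, not tests.

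Genes of the NF-kB pathway were read in the same libraries, upstream first. Of the 9 IKK and TAK1 kinase genes tested, 0 passed by edgeR in progenitors from day 0 to 2. In fresh cells from day 30 to 32 it was 0 too, and in thawed cells 1, IKBKG, rose (log2 1.10, adjusted p = 0.0277). Of all genes tested 31.1%, 17.3% and 11.4% were called in these 3 comparisons. Of the 4 NF-kB subunits tested none was called in those 3 comparisons. RELA, the main activating subunit, had log2 changes of -0.66, -0.25 and 0.03, REL of -0.56, -0.57 and 0.15, and NFKB1 of -0.14, -0.82 and 0.46. On day 30, however, REL, NFKB1 and RELA were lower in thawed than in fresh cells by edgeR, with log2 differences of -0.96, -0.93 and -0.77 (adjusted p = 0.0021, 0.0402 and 0.0441). In that comparison 6.36% of all genes were lower, and CCL2 and CCL20 were the members called. The CCL20 call was lost under several alternatives, as given above. NF-kB activity itself was not measured.

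Some feedback genes fell in the same comparisons. Of the 12 NF-kB inhibitor and feedback genes tested, 6 were lower in progenitors from day 0 to 2, 4 in fresh and 4 in thawed cells from day 30 to 32, and none higher; of all genes tested 16.9%, 8.19% and 5.91% were lower. ZFP36, which encodes an RNA-binding protein that destabilizes cytokine transcripts, fell, with log2 changes of -3.76, -2.25 and -2.77 (adjusted p = 3.16e-20, 1.59e-11 and 4.15e-15). NFKBIZ, which encodes the nuclear IkB family protein IkB-zeta, fell, with log2 changes of -4.57, -1.98 and -2.25 (adjusted p = 1.06e-13, 1.6e-05 and 1.17e-06). ZC3H12A, the gene of the RNase regnase-1, fell, with log2 changes of -3.06, -1.10 and -2.10 (adjusted p = 7.23e-10, 0.0344 and 8.16e-05).

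Other NF-kB targets did not all fall. Of 21 tested, 12 were lower and 2 higher in progenitors, 5 lower and 3 higher in fresh, and 7 lower and 2 higher in thawed cells. Of all genes tested 16.9%, 8.19% and 5.91% were lower and 14.1%, 9.11% and 5.5% higher in these 3 comparisons. The stress-response gene IER3 fell in fresh and thawed cells from day 30 to 32, with log2 changes of -3.10 and -4.34 (adjusted p = 2.3e-08 and 5.05e-10). BIRC3, an inhibitor of apoptosis, rose by 1.23 in thawed cells (adjusted p = 3.49e-13). SAA2, an acute-phase gene of the liver, had a log2 change of -3.88 in progenitors (adjusted p = 1.5e-29), and SAA1 fell as well (adjusted p = 1.41e-30). Among the other 35 chemokine genes 7 were tested, and 5, 1 and 0 of them were lower in the 3 comparisons, with none higher; CX3CL1, the gene of fractalkine, fell in progenitors and fresh cells, with log2 changes of -3.96 and -1.79 (adjusted p = 5.24e-06 and 0.00232).

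AP-1 and C/EBP factor genes, whose products act beside NF-kB at many chemokine promoters, fell in the same 3 comparisons. Of 10 tested, 8, 7 and 7 were lower in progenitors, fresh and thawed cells, with median log2 changes of -3.22, -1.88 and -2.79. Of all genes tested 16.9%, 8.19% and 5.91% were lower, and the medians over all of them were -0.06, 0.00 and 0.01. The 8 members had medians of -3.58, -2.33 and -2.72. A link between these factor genes and the members was not tested. FOS had log2 changes of -6.96, -5.59 and -6.53 (adjusted p = 1.39e-21, 1.9e-17 and 6.53e-21) and FOSB of -6.74, -5.73 and -6.78 (adjusted p = 1.61e-14, 2.38e-12 and 2.85e-13). From progenitor day 14 to fresh day 30, 7 of the 10 rose, among them ATF3 by 3.25 (adjusted p = 4.78e-10), where 11.8% of all genes were higher.

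**Figure D4:**
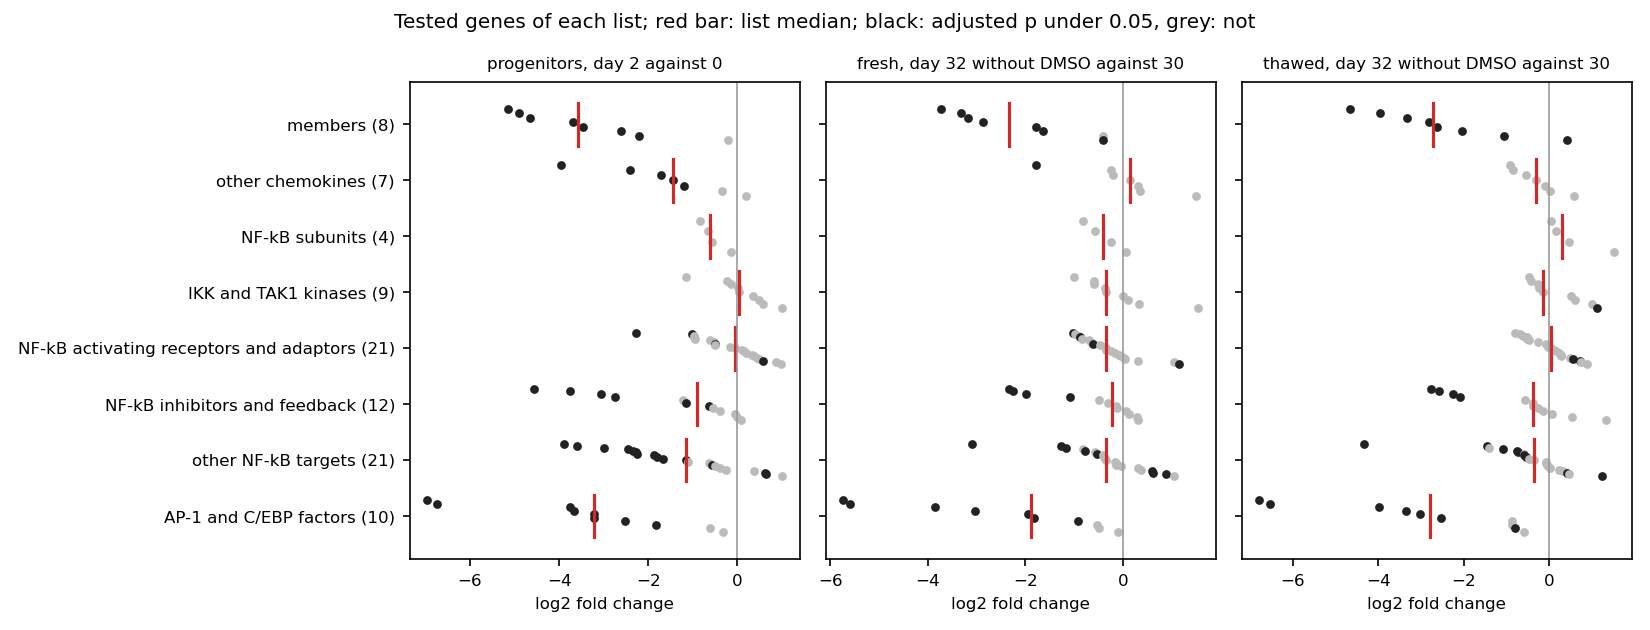
Log2 fold change of every tested gene of 8 lists (rows, number tested in brackets) in the 3 comparisons over the first 2 days; black passed the adjusted p threshold of 0.05, grey did not, and the red bar is the list median. The members and the AP-1 and C/EBP factors have medians between -3.58 and -1.88, while the NF-kB subunits have no black point.

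CXCL5 and CXCL6, the remaining neutrophil chemokine genes of the chromosome 4 cluster, were close to 0 throughout. CXCL5 had 20 counts and CXCL6 had 6 over the 87 libraries, so no change could be read for either at this depth. Their promoters held the same GGAATTTCC match as CXCL1, CXCL2, CXCL3 and CXCL8. Because the counting rule is not given, reads of close paralogs are uncertain: CXCL1 and CXCL2 shared 20.2% of the 25-base words in the last 500 bases of their transcripts, and CXCL2 and CXCL3 shared 11.9% over whole transcripts. CXCL8, CXCL13, CCL2, CCL20 and NFKBIA shared none with another member.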

How the data were processed

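RNA of 90 HepaRG libraries was measured by BRB-seq, and the authors deposited raw counts per gene as 1 table. BWA 0.7.4.4 and the builds hg38 and mm10 are named, without their roles, in the submitters' processing notes. The counts are labelled unq, refseq and total, without further explanation. The counting rule, use of molecular identifiers, strand and annotation release are not described in the sources used here. Groups were taken from the labels: 15 conditions, 2 lines, 3 replicates.

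In R 4.3.3, edgeR 4.0.16 was run on the counts of all groups at once (TMM scaling, filterByExpr and a robust quasi-likelihood fit, leaving 60 degrees of freedom), which tested 12125 genes in 17 comparisons and 3 differences of effects, each adjusted by Benjamini-Hochberg over all genes tested, with a threshold of 0.05. The fit was also run on simulated counts, only for fresh cells on day 32 without DMSO against day 30. That run left out the nearly empty libraries and genes under 5 CPM, and gave every gene the same variability. It therefore does not test calls of low genes or calls that depend on libraries standing apart. CPM scale each count to the TMM-adjusted library size, an SE is the log2 change divided by the root of F, and intervals are at 95%. Libraries under 0.25 times the median total of 1935150 were treated as nearly empty. Intervals cover the spread between libraries only. Promoter sequences and positions are from RefSeq (GRCh38.p14), which is not known to be the build of the counts; CCL2 had no promoter entry. Pathway genes were named by rule: per list and comparison, up to 3 called genes of at least 5 CPM with the smallest p; the NF-kB subunits, IKBKG and CX3CL1 in fresh cells were named after their values were seen. The members and lists were chosen with earlier results of these data known. Alternatives were RLE scaling, no filter, a mean count of at least 10, a replicate block, each replicate letter left out, the nearly empty libraries left out, only the compared libraries, and DESeq2 1.42.0; 4 more were added after seeing the data. Over all genes same-letter libraries did not deviate together (median correlation -0.00169, against -0.000571 for other letters).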

Additional observations from a re-analysis of the deposited data

Results flagged for a closer look

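In 14 of 120 groups of 1 gene and 1 condition, 1 library lay further from the rest than Dixon's test allows; chance alone is expected to give some. Parental progenitor day 14 a accounted for 6 of them: CXCL1 at 38.1 CPM, CXCL2 at 66.3 CPM, CXCL3 at 31.3 CPM, CXCL8 at 58.0 CPM, CCL20 at 49.1 CPM and NFKBIA at 126.2 CPM, where the next highest libraries were at 17.8, 17.6, 6.34, 21.8, 12.4 and 59.8 CPM.

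The other 8 were spread over conditions. CCL2 was at 10.01 CPM in transduced fresh day 37 b and at 31.02 CPM in transduced thawed day 30 a. CCL20 was at 6.15 CPM in transduced thawed day 32 with DMSO b, and CXCL1 at 6.91 CPM in parental a of that condition. CXCL13 was at 346 CPM in parental progenitor day 0 c. CXCL8 was at 29.8 CPM in transduced fresh day 32 without DMSO b, at 40.6 CPM in transduced progenitor day 7 a and at 16.4 CPM in transduced thawed day 37 a.

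The change from day 30 to day 32 differed between thawed and fresh cells for CXCL8, by -1.78 on the log2 scale, and for CXCL13, by 0.83, by edgeR's test of the difference.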

How the results depend on the processing

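No called value changed sign under any alternative run. Of the 66 called single values, 18, 19 and 8 lost their call without replicates a, b and c, 3 with RLE scaling, 2 with no filter and 0 with the replicate block; over all genes the letters did not pair the libraries, although at thawed day 30 the members deviated alike by letter in both lines. RLE scaling with the nearly empty libraries shifted all 8 members alike, by up to -0.402 on the log2 scale (thawed against fresh, day 30). The number of members called moved by over 1.5 times as follows; smaller moves, of 1 member in these data, are not listed. From day 7 to 14 in progenitors it was 2 with no filter. For DMSO in fresh cells it was 4 with no filter, with only the compared libraries and without the 2 thawed day 30 libraries c. For thawed against fresh cells it was, on day 30, 7 with RLE scaling, 1 with only the compared libraries, 4 by DESeq2 and 1 by DESeq2 without the nearly empty libraries; on day 32 with DMSO, 0 by DESeq2 (6 members had no adjusted p), 5 by DESeq2 without the nearly empty libraries and 5 without the thawed libraries c; and on day 44, 1 with no filter. For the lines in fresh cells it was 2 with RLE scaling and by DESeq2, where CXCL13 was added. For the difference of the day 32 changes it was 1 with RLE scaling, with only the compared libraries and by DESeq2. Leaving out 1 replicate letter gave 7 to 7, 6 to 7 and 1 to 1 members in the 3 progenitor comparisons, 5 to 8 from progenitor to fresh day 30, and 6 to 7, 1 to 3 and 2 to 3 for day 32, DMSO and day 44 in fresh cells. In thawed cells these were 7 to 7, 3 to 3 and 3 to 3. Thawed against fresh gave 1 to 2, 1 to 4, 1 to 2 and 0 to 0, the lines in progenitors, fresh and thawed cells 0 to 0, 1 to 1 and 0 to 1, and the 3 differences of effects 0 to 2, 0 to 0 and 0 to 0. Counts of 10 or fewer in many DMSO libraries limit CXCL3, CCL20 and CXCL1 there. Low counts limit CCL2 and CXCL8 as well, with 38 and 40 counts over the 6 thawed libraries of day 32 with DMSO.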
